A study of Homo sapiens with 3 samples.

Results

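The integrated stress response genes described here are 10 protein-coding genes picked by symbol from the deposited expression table: ATF4, DDIT3, TRIB3, CHAC1, ASNS, PSAT1, SESN2, ATF5, CEBPB and PPP1R15A. All 10 were found among its 58735 genes, and all 10 were among the 13852 tested, whose mean over the libraries reached 1 FPKM or more (fragments per kilobase of gene length, scaled to library size). They were chosen with their levels in these libraries already known, so their differences between libraries are given as a description, with no test.

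RNA-seq was performed on the gastric cancer cell line HGC-27. Libraries labelled shUSP16-1 and shUSP16-2 carried short hairpin RNA against USP16, a deubiquitinase best known for acting on histone H2A, with the genotype given as shUSP16. The 1 control library, shControl, is described as Scramble, with the genotype given as WT. All 3 were grown with fetal bovine serum and antibiotics, and the protocol text of all 3 also names dexamethasone, isobutylmethylxanthine and insulin. Whether these cells received them is unclear. Nothing in the labels tells whether the numbers 1 and 2 stand for 2 hairpins or for 1 hairpin in repeat, nor whether cultures were separate. Spread between them may therefore be technical, and every difference is a difference from 1 control library.

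The integrated stress response begins when 1 of a family of kinases phosphorylates the translation factor eIF2 in response to amino acid shortage, unfolded protein in the endoplasmic reticulum, heme shortage or double-stranded RNA. General translation then falls, while the transcription factor ATF4 is translated more because of short upstream reading frames in its mRNA. ATF4 protein induces amino acid synthesis and transport genes, DDIT3 (CHOP), and PPP1R15A (GADD34), which brings a phosphatase to eIF2 and ends the response. ATF4 mRNA is therefore no measure of ATF4 protein, and eIF2 phosphorylation was not measured in these libraries.

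Sequence before the transcription start of each gene is shown first, since the response is written into such promoters. RefSeq promoter windows on GRCh38.p14, from 250 bases before the annotated start to 50 after it, were matched by symbol for all 10 genes. They were searched on both strands for 5 motifs. The first is TGATGNAA, the core of the composite element bound by ATF4 and DDIT3 with C/EBP partners. TGACGTCA is the cyclic AMP response element (CRE), TGANTCA the AP-1 element of JUN and FOS dimers, and CCAAT the NF-Y box. The last motif, the endoplasmic reticulum stress element bound by ATF6 and XBP1, is CCAAT and CCACG separated by 9 bases. Stretches of 30 bases around every match to the first 3 motifs are shown on the gene's own strand, 5′ to 3′, with the match in capitals.
DDIT3, AP-1 element, chr12:57520735-57520764, minus strand: gcgcgcgcaTGACTCAcccacctcctccgt
ATF5, AP-1 element, chr19:49928707-49928736, plus strand: ggagagtgctgTGACTCAtgctggactcta
ASNS, C/EBP-ATF core, chr7:97872458-97872487, minus strand: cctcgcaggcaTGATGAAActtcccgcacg
CHAC1, C/EBP-ATF core on the opposite strand, chr15:40953251-40953280, plus strand: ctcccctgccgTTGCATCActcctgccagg
PPP1R15A, CRE, chr19:48872352-48872381, plus strand: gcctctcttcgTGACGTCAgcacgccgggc

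Counted with the start site as 0, the match began at -241 for DDIT3, -188 for ATF5, -68 for ASNS, -209 for CHAC1 and -58 for PPP1R15A. In GENCODE release 29 the matches of ASNS and CHAC1 lay in an exon of a longer transcript of the same gene, and that of ATF5 in exons of ATF5 and NUP62. Those of DDIT3 and PPP1R15A lay in no exon. The C/EBP-ATF core was in windows of 2 of the 10 genes, against 3.62% of all 35116 RefSeq windows. The AP-1 element was in 2, against 7.71% of windows, and the CRE in 1, against 1.85%. CCAAT boxes were in 5, against 34.6%, and the endoplasmic reticulum stress element in 0, against 0.0769%. Only exact matches were counted, so near matches to this element were missed. In the DDIT3 stretch printed below, CCAAT on the gene's own strand is followed, at the searched spacing, by CCACT in place of CCACG. On the opposite strand CCAAT is followed at that spacing by GCACG. Whether these near matches act as the element was not tested. DDIT3, TRIB3, ATF4, ASNS, ATF5 and CEBPB have more than 1 annotated start, and some of those windows overlap. A member was counted if any of its windows matched, whereas the shares are of single windows, which is not a like unit. By the first window of each of 27305 genes, shares were 3.67% for the C/EBP-ATF core, 7.76% for AP-1 and 1.98% for the CRE. They were 35.7% for CCAAT and 0.0806% for the endoplasmic reticulum stress element. A match is letters in a window and does not show that a factor binds there.

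Longer stretches are given for DDIT3 and PPP1R15A, the genes furthest below shControl, and for PSAT1, which was above it; these carry a CRE or CCAAT boxes, in capitals, and leave out annotated exons.
DDIT3, -195 to -4, chr12:57520518-57520709, minus strand: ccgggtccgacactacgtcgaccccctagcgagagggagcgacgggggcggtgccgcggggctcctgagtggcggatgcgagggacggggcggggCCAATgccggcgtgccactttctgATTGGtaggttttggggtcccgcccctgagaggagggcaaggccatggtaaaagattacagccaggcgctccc
PPP1R15A, -250 to -30, chr19:48872171-48872391, plus strand: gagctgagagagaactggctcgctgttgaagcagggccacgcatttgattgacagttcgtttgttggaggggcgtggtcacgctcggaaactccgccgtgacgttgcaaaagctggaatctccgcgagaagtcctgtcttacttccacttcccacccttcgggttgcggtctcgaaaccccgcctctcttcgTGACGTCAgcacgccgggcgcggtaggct
PSAT1, -250 to -1, chr9:78296875-78297124, plus strand: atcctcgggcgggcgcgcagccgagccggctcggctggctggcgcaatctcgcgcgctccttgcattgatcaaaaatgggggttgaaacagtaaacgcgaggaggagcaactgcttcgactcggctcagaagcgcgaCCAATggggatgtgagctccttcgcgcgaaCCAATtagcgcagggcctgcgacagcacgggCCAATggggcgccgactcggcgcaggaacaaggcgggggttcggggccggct

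**Figure D1:**
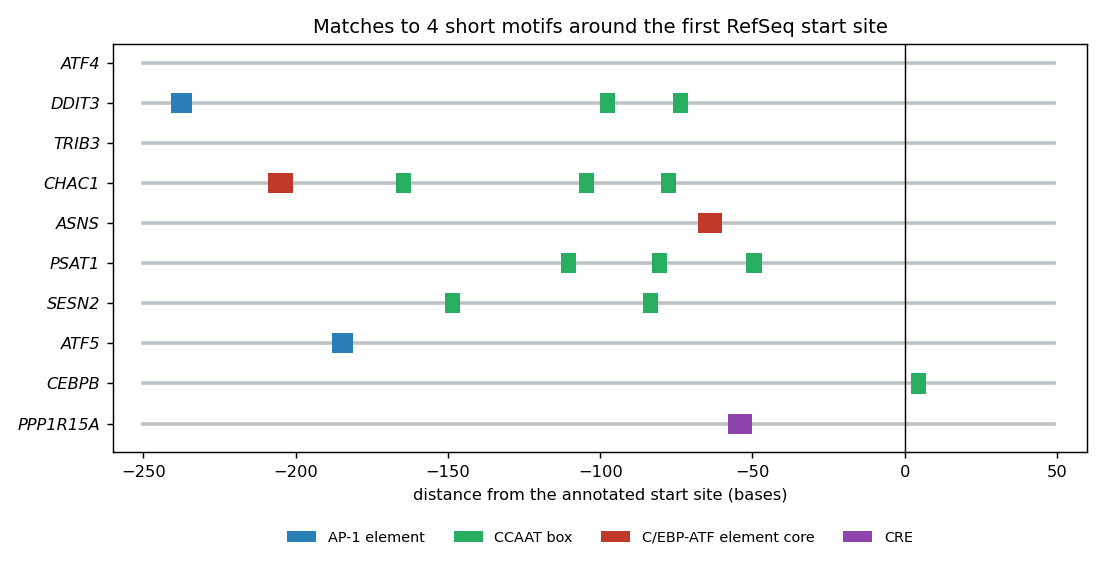
Positions of motif matches (coloured blocks) in the first RefSeq promoter window of each gene, with distance from the annotated start site in bases on the x axis and genes down the page. DDIT3 and ATF5 hold an AP-1 element, ASNS and CHAC1 a C/EBP-ATF core, PPP1R15A a CRE, and ATF4 and TRIB3 none of these motifs in this window.

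The depth and labels of the libraries bear on every value. Recovered reads came to 29530581 in shUSP16-1, 31187845 in shUSP16-2 and 30131136 in shControl. USP16 had 4.29 FPKM in shUSP16-1 and 5.98 FPKM in shUSP16-2, against 6.28 FPKM in shControl, so the ratio to shControl was 0.683 (0.621 to 0.749) in the first and 0.952 (0.875 to 1.04) in the second, whose interval includes 1. Scaled instead by summed reads, USP16 stood at 0.639 (0.582 to 0.702) and 0.876 (0.805 to 0.953) of shControl, both below 1. Both are called by their labels here. The deposited FPKM of shControl are lower, relative to the other libraries, than division by the sum of reads would give, so ratios by sums of reads are given as well where a member's side of 1 depends on the scaling. With the deposited values the median gene was 0.041 above shControl in shUSP16-1 and 0.043 above in shUSP16-2 on the log2(FPKM + 1) scale. With equal totals it was at -0.037 and -0.057. Epithelial markers were nearly absent, with a summed level of 0.468, 0.206 and 0.718 FPKM in shUSP16-1, shUSP16-2 and shControl for EPCAM, CDH1, KRT8, KRT18 and KRT19. KRT19 had 0 reads in all 3. Of 9 gastric markers, 3 (GATA4, GATA6 and MUC1) passed the filter on low values, and the list summed to 14.5, 12.5 and 12.7 FPKM. TFF1, TFF2 and MUC5AC had 0 reads in all 3, and MUC6, GKN1 and CLDN18 had 30 reads or fewer in each. Of 4 mesenchymal markers, VIM and ZEB1 passed and FN1 and CDH2 did not. VIM, a filament gene, had 159, 180.2 and 155 FPKM and CDH2 10 reads or fewer. Leukocyte and endothelial markers summed to 0.445, 0.337 and 0.0207 FPKM, with PTPRC and PECAM1 at 0 reads, CD14 at 24, 19 and 0 reads and VWF at 6, 4 and 7 reads. Fibroblast markers summed to 110 and 141 FPKM in shUSP16-1 and shUSP16-2 against 99.6 FPKM in shControl, and most of the sum was COL1A1. COL1A1 had 71.1 and 78.4 against 52.2 FPKM, and COL1A2 6.97 and 11.3 against 5.23 FPKM. LUM, at 22.9 and 38.3 against 32.2 FPKM, was lower in shUSP16-1 and higher in shUSP16-2. So was DCN, at 8.71 and 12.2 against 9.51 FPKM. PDGFRB did not pass the filter on low values. The part of these markers in the results was not tested. In bulk RNA, fewer cells of a type and less RNA per cell cannot be told apart.

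Levels of the 10 genes, given per length, spanned a range from ASNS, with a mean of 8.45 FPKM over the 3 libraries, to PSAT1, with a mean of 469.8 FPKM. Bases shared with other genes limit how far the levels of ASNS, DDIT3, ATF5 and CEBPB compare with the rest, as do pseudogenes for ASNS. How reads there were counted is unknown. PSAT1 and ATF4 stood above 99.6% and 99.5% of the 13852 tested genes, and ASNS above 62.4%. CEBPB, TRIB3, ATF5 and CHAC1 formed a middle group between 38.8 and 52.3 FPKM in every library. Within it, libraries of TRIB3, ATF5 and CHAC1 overlapped, so their order is not set, while CEBPB was above all 3 of them in each library. DDIT3, SESN2 and PPP1R15A were lower, between 9.58 and 29.8 FPKM.

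**Figure D2:**
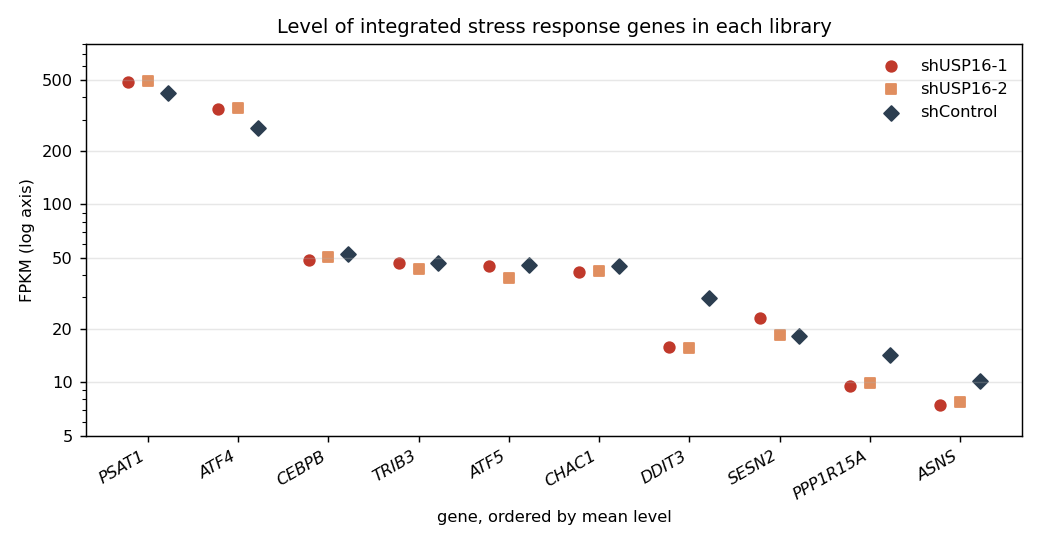
Level of each gene in FPKM (log axis) in shUSP16-1 (circles), shUSP16-2 (squares) and shControl (diamonds), with genes ordered by mean level. PSAT1 and ATF4 lie at 269.7 to 498 FPKM, and the shControl diamond of DDIT3, at 29.8 FPKM, stands well above both shUSP16 points.

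The 10 genes did not all lie on 1 side of shControl. With the deposited scaling, DDIT3, PPP1R15A and ASNS were lower in both libraries labelled shUSP16 than in shControl. ATF4 and PSAT1 were higher in both, and TRIB3, CHAC1, CEBPB, ATF5 and SESN2 lay nearer to shControl or differed between the libraries. In all, 6 of 10 were lower in both libraries and 3 higher in both, where 32.4% of tested genes were lower in both and 44.9% higher in both. With equal totals or median-ratio scaling 7 were lower and 2 higher. The share of all tested genes was not counted with these scalings. Equal totals also moved the median of all tested genes, to -0.037 in shUSP16-1 and -0.057 in shUSP16-2. With the deposited scaling the median log2 difference of the 10 genes was -0.056 in shUSP16-1 and -0.093 in shUSP16-2. By sums of reads PSAT1, at ratios of 1.08 and 1.08, lay nearer to shControl than CHAC1 or CEBPB. CHAC1 had 0.874 and 0.867, and CEBPB 0.872 and 0.891.

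DDIT3 encodes CHOP, a bZIP factor that pairs with C/EBP proteins and promotes death when stress persists. The gene (ENSG00000175197, chromosome 12, 57516588 to 57521737, minus strand, GRCh38) had 15.8 FPKM in shUSP16-1 and 15.5 FPKM in shUSP16-2, against 29.8 FPKM in shControl. The 2 libraries labelled shUSP16 were nearly equal, and both lay far below shControl. These values came from 619, 629 and 1267 reads. Relative to shControl this was 0.532 for the first, with an exact binomial 95% interval from 0.483 to 0.586, and 0.521 for the second (0.473 to 0.574). All intervals given cover counting error only. The mean was 15.7 ± 0.229 FPKM in shUSP16 (SD, n = 2), a log2 difference of -0.88 on the log2(FPKM + 1) scale. As a description, 0.758% of tested genes were as low in both libraries.

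DDIT3 was the 1 member at least 1.5-fold lower in both libraries, a size met by 2.01% of tested genes, and 0 members were 1.5-fold higher, a size met by 0.960%. With equal totals PPP1R15A also passed, making 2. Of the 13852 tested genes 406 then passed as lower, against 279 with the deposited scaling. At 2-fold 0 members passed as lower, against 0.433% of tested genes. Fitted over all 13852 genes, limma found 0 past an adjusted p of 0.05 (0%), members included, while 2008 had an unadjusted p below 0.05. With a mean of at least 5 FPKM it called 0.170% of 7639 genes (0.0393% higher and 0.131% lower) and 0 members. In a fit to the 11069 protein-coding genes it called 0.434%, DDIT3 among them. limma voom on recovered reads called 2.51% of genes with the totals behind the deposited FPKM, and DDIT3 again was the only member. Taking sums of reads as the totals raised this to 4.02%, of which the lower genes made 3.02%, with DDIT3, ASNS and PPP1R15A among them. These counts carry no weight of their own, since the members were chosen from this contrast.

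DDIT3 shares sequence with neighbours, which limits its value. Of its 1307 exonic bases, 355 also lie in exons of MARS, the methionyl-tRNA synthetase gene on the opposite strand, and the strand setting of the counting is unknown. MARS itself was higher, at 37.8 and 40.6 FPKM in shUSP16-1 and shUSP16-2 against 29.5 FPKM in shControl, opposite in direction to DDIT3. MIR616, a microRNA gene inside DDIT3 on the same strand that overlaps no DDIT3 exon, had 48 and 32 reads in shUSP16-1 and shUSP16-2 against 117 in shControl. Its ratios were 0.447 (0.313 to 0.630) and 0.287 (0.188 to 0.428).

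PPP1R15A encodes GADD34, the stress-induced partner of protein phosphatase 1 that removes phosphate from eIF2. It (ENSG00000087074, chromosome 19, 48872392 to 48876057, plus strand) had 9.58 FPKM in shUSP16-1 and 9.94 FPKM in shUSP16-2, against 14.2 FPKM in shControl. As for DDIT3, shControl stood above both. The ratios were 0.673 (0.618 to 0.732) and 0.698 (0.643 to 0.759), with a log2 difference of -0.50 between the mean of shUSP16 and shControl. Among tested genes 3.35% were as low in both. PPP1R15B, the constitutive partner of the same phosphatase, had 33.8 FPKM in both libraries labelled shUSP16 and 31.7 FPKM in shControl. PPP1R15B was thus 3.54 and 3.40 times the level of PPP1R15A in shUSP16-1 and shUSP16-2, and 2.23 times in shControl.

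ASNS encodes asparagine synthetase, a classical target of ATF4. It (ENSG00000070669, chromosome 7, 97852118 to 97872542, minus strand) had 7.43 FPKM in shUSP16-1 and 7.75 FPKM in shUSP16-2, against 10.2 FPKM in shControl. Both libraries labelled shUSP16 again lay below shControl, with ratios of 0.730 (0.673 to 0.792) and 0.762 (0.704 to 0.825). ASNS has 4 named pseudogenes, of which ASNSP1 held nearly all reads, at 566 and 664 reads in shUSP16-1 and shUSP16-2 against 911 in shControl, and shares 1985 of its 4455 exonic bases with the transcript AC079781.5 on its own strand. Summed with the pseudogenes, the ratios for ASNS were 0.710 and 0.763.

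ATF4, the bZIP factor at the centre of the response (ENSG00000128272, chromosome 22, 39519695 to 39522685, plus strand), was among the most abundant mRNAs. It had 346 FPKM in shUSP16-1 and 351 FPKM in shUSP16-2, against 269.7 FPKM in shControl, from 26012, 27336 and 22074 reads. Both libraries labelled shUSP16 were above shControl, with ratios of 1.28 (1.26 to 1.31) and 1.30 (1.28 to 1.32). Scaled by sums of reads the ratios were 1.20 and 1.20. The log2 difference of 0.37 was matched or passed in both libraries by 5.12% of tested genes. Its 4 pseudogenes held 32 reads or fewer in each library. DDIT3 stood at 4.58 and 4.43 FPKM per 100 FPKM of ATF4 in shUSP16-1 and shUSP16-2, against 11.0 in shControl.

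PSAT1, phosphoserine aminotransferase of serine synthesis (ENSG00000135069, chromosome 9, 78297143 to 78330093, plus strand), had 487 FPKM in shUSP16-1 and 498 FPKM in shUSP16-2, against 424 FPKM in shControl. Both were above shControl by a smaller ratio than ATF4, at 1.15 (1.13 to 1.17) and 1.17 (1.16 to 1.19). By sums of reads the ratios were 1.08 and 1.08. As high in both libraries were 16.7% of tested genes. PSAT1 and ASNS, both amino acid enzymes under ATF4, thus lay on opposite sides of shControl. PSAT1 was 65.6 and 64.3 times the level of ASNS in shUSP16-1 and shUSP16-2, and 41.7 times in shControl. The shared bases and pseudogenes of ASNS limit these multiples.

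TRIB3 and CHAC1 are late targets that rise with ATF4 and DDIT3 protein. TRIB3, a pseudokinase that restrains AKT and feeds back on ATF4 (ENSG00000101255, chromosome 20, 362835 to 397559, plus strand), had 46.8 FPKM in shUSP16-1 and 43.4 FPKM in shUSP16-2, against 46.6 FPKM in shControl. The library shUSP16-1 was level with shControl, at a ratio of 1.00 (0.966 to 1.04), and shUSP16-2 slightly below, at 0.930 (0.893 to 0.967). CHAC1, a glutathione-degrading enzyme (ENSG00000128965, chromosome 15, 40952962 to 40956519, plus strand), had 41.8 FPKM in shUSP16-1 and 42.2 FPKM in shUSP16-2, against 44.8 FPKM in shControl. Both were just below shControl, with ratios of 0.933 (0.885 to 0.984) and 0.943 (0.895 to 0.993). By sums of reads TRIB3 had ratios of 0.941 and 0.855 and CHAC1 of 0.874 and 0.867, so TRIB3 in shUSP16-1 turned from level to lower with the scaling. The paralogues TRIB1 and TRIB2 had log2 differences of 0.14 and -0.19 in shUSP16-1 and of -0.077 and 0.014 in shUSP16-2.

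CEBPB and ATF5 are bZIP factors of the response. CEBPB, a partner of both ATF4 and DDIT3 (ENSG00000172216, chromosome 20, 50190734 to 50192689, plus strand), had 48.7 FPKM in shUSP16-1 and 50.7 FPKM in shUSP16-2, against 52.3 FPKM in shControl. Its ratios were 0.931 (0.885 to 0.979) and 0.969 (0.922 to 1.02), the second with an interval that includes 1. Summed reads gave ratios of 0.872 (0.829 to 0.916) and 0.891 (0.848 to 0.936), both below 1. CEBPB shares 231 of its 1956 exonic bases with CEBPB-AS1 on the opposite strand. CEBPB-AS1 had 48 and 30 reads in shUSP16-1 and shUSP16-2 against 75 in shControl. ATF5, known for the mitochondrial stress response (ENSG00000169136, chromosome 19, 49928702 to 49933935, plus strand), had 44.9 FPKM in shUSP16-1 and 38.8 FPKM in shUSP16-2, against 45.4 FPKM in shControl. One library labelled shUSP16 was level with shControl and the other lower, with ratios of 0.990 (0.948 to 1.03) and 0.855 (0.817 to 0.894). Scaling by summed reads gave 0.927 (0.888 to 0.968) and 0.786 (0.752 to 0.822), both lower. ATF5 shares 626 of its 2954 exonic bases with NUP62, a nuclear pore gene on the opposite strand that was higher, at 20.8 and 20.9 FPKM in shUSP16-1 and shUSP16-2 against 16.3 FPKM in shControl.

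SESN2, a leucine sensor that restrains mTORC1 and is induced by ATF4 (ENSG00000130766, chromosome 1, 28259527 to 28282491, plus strand), differed most between the 2 libraries labelled shUSP16. It had 23.0 FPKM in shUSP16-1 and 18.4 FPKM in shUSP16-2, against 18.2 FPKM in shControl. The first was above shControl, at a ratio of 1.26 (1.19 to 1.34), and the second level with it, at 1.01 (0.950 to 1.08). By sums of reads the second was 0.930 (0.874 to 0.990), below shControl. Set directly against each other, shUSP16-1 was 1.25 times shUSP16-2 (1.18 to 1.33) for SESN2, 1.16 times (1.11 to 1.21) for ATF5, 1.08 times (1.04 to 1.13) for TRIB3 and 0.979 times (0.964 to 0.994) for PSAT1. By sums of reads the PSAT1 ratio was 0.996 (0.981 to 1.01), which includes 1. With the deposited scaling, for the other 6 genes this interval included 1. For DDIT3 it was 1.02 (0.912 to 1.14), and 88.3% of tested genes lay at least as far apart between the 2 libraries. The share of tested genes whose interval between these libraries leaves out 1 was not counted. With many reads it leaves out 1 at small gaps, as for PSAT1.

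**Figure D3:**
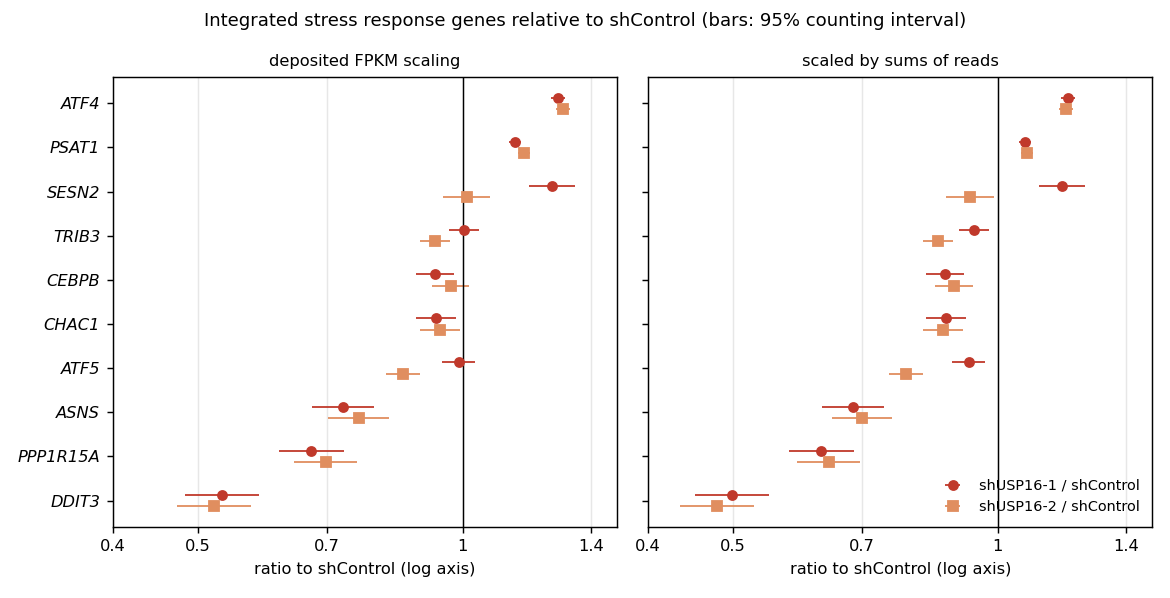
Ratio to shControl (log axis) of each gene in shUSP16-1 (circles) and shUSP16-2 (squares) with deposited FPKM scaling (left) and sums of reads (right); bars are exact binomial 95% intervals of counting error. DDIT3, PPP1R15A, ASNS and CHAC1 lie below 1 and ATF4 and PSAT1 above 1 in both libraries with either scaling, while SESN2 is above 1 only in shUSP16-1 with sums of reads.

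With counting error alone, DDIT3, PPP1R15A, ASNS and CHAC1 had intervals below 1 in both libraries, and ATF4 and PSAT1 had intervals above 1. With sums of reads TRIB3, ATF5 and CEBPB were also below, while ATF4 and PSAT1 stayed above. The share of all tested genes that would meet this was not counted, and with many reads the intervals leave out 1 at small gaps, as for CHAC1. The largest gaps from shControl were those of DDIT3 and PPP1R15A, an effector and a feedback arm, and they ran opposite to ATF4 mRNA.

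The rest of the pathway was followed in 10 lists of other genes, each given by counts and medians. limma over all genes called 0 members of every list. The 4 eIF2 kinases, which sense the stresses, were close to shControl. EIF2AK1 (HRI, heme shortage) had 56.6 FPKM in shUSP16-1 and 53.5 FPKM in shUSP16-2, against 53.8 FPKM in shControl. EIF2AK2 (PKR, double-stranded RNA) had 9.91 and 10.4 against 9.93 FPKM, and EIF2AK4 (GCN2, uncharged tRNA) 7.58 and 7.10 against 7.82 FPKM. EIF2AK3 (PERK, endoplasmic reticulum stress) had 4.45 and 5.73 against 4.77 FPKM, and so lay on either side of shControl. Their limma adjusted p values were 0.913, 0.921, 0.788 and 0.869. With their regulators, 5 of 10 tested genes were higher in both libraries and 1 lower in both, and the list median was 0.0060 in shUSP16-1 and 0.19 in shUSP16-2. This lean depended on scaling, since equal totals put 3 higher and 4 lower, and the medians were -0.073 and 0.081. The highest of them were GCN1, an activator of GCN2, DNAJC3, a PERK inhibitor, and IMPACT, a GCN2 inhibitor, with mean log2 differences of 0.27, 0.34 and 0.30.

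The substrate stood apart from its kinases. EIF2S1, which encodes the phosphorylated alpha subunit of eIF2, had 19.2 FPKM in shUSP16-1 and 22.3 FPKM in shUSP16-2, against 13.1 FPKM in shControl. Both were above shControl, with a log2 difference of 0.62 and a limma adjusted p of 0.280; voom called it with either total. EIF2S2 had 100.9 and 115.8 against 88.9 FPKM, and EIF2B3, of the exchange factor eIF2B, 10.1 and 11.8 against 8.59 FPKM. The catalytic phosphatase subunit gene PPP1CA had 48.1 and 48.4 against 40.4 FPKM. In this list of eIF2, eIF2B and phosphatase genes 9 of 12 were higher in both and 1 lower, with medians of 0.087 and 0.21, against 5 higher and 3 lower with equal totals.

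Genes that ATF4 induces for amino acid supply were mostly above shControl, on the side of ATF4 and PSAT1. Over all tested genes 44.9% were higher in both libraries, with a median log2 difference of 0.042. That median was 0.067 for protein-coding genes and 0.109 for genes averaging 5 FPKM or more. Of amino acid synthesis and one-carbon genes, 11 of 12 tested were higher in both libraries and 0 lower, and the list median was 0.20 in shUSP16-1 and 0.28 in shUSP16-2. PCK2, mitochondrial PEP carboxykinase, had 69.0 FPKM in shUSP16-1 and 60.3 FPKM in shUSP16-2, against 43.7 FPKM in shControl (limma adjusted p = 0.280), and was the 1 gene of the list that voom called. MTHFD1L, of mitochondrial folate metabolism, had a mean log2 difference of 0.51, PYCR1, of proline synthesis, 0.34, and PHGDH, the first enzyme of serine synthesis, 0.24. CBS, at 0, 2 and 2 reads in shUSP16-1, shUSP16-2 and shControl, was too low to test. The 1 gene not higher in both was ALDH18A1 of proline synthesis, named after seeing its values, at log2 differences of -0.025 and 0.15.

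Of amino acid transporters 7 of 9 were higher in both and 0 lower, with medians of 0.35 and 0.38. SLC7A5, the light chain of the large neutral amino acid carrier, had 174 FPKM in shUSP16-1 and 157 FPKM in shUSP16-2, against 105 FPKM in shControl, and voom called it with either total (limma adjusted p = 0.272). SLC7A1, SLC1A4 and SLC6A9 had mean log2 differences of 0.41, 0.40 and 0.39. All 13 aminoacyl-tRNA synthetase and tRNA export genes were higher in both, with medians of 0.27 and 0.34, led by EPRS at 0.38, MARS at 0.40, GARS at 0.37 and WARS at 0.39. With equal totals these 3 lists had 10, 7 and 12 genes higher in both and 0 lower. ASNS, an enzyme of the same programme, was the member that lay on the other side.

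Stress and death targets of ATF4 and DDIT3 were split, with 6 of 20 tested genes higher in both libraries and 7 lower, and medians of 0.025 and -0.023. TXNIP, an inhibitor of thioredoxin, had 12.7 FPKM in shUSP16-1 and 21.0 FPKM in shUSP16-2, against 29.9 FPKM in shControl. KLHL24, a ubiquitin ligase adaptor, had 2.40 and 1.63 against 3.49 FPKM, and BBC3 (PUMA), a death-promoting BCL2 family gene, 2.32 and 1.29 against 3.32 FPKM. STC2, a secreted glycoprotein induced by stress, was on the other side, at 13.3 and 14.2 against 10.9 FPKM. Their limma adjusted p values were 0.319, 0.326, 0.353 and 0.347. With either total voom called TXNIP and KLHL24 lower, and with sums of reads it also called BBC3 lower. The family members TRIB1, TRIB2, SESN1, SESN3, CHAC2 and ASNSD1 had 1 gene higher in both, ASNSD1, and 1 lower in both, SESN1, of 6.

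**Figure D4:**
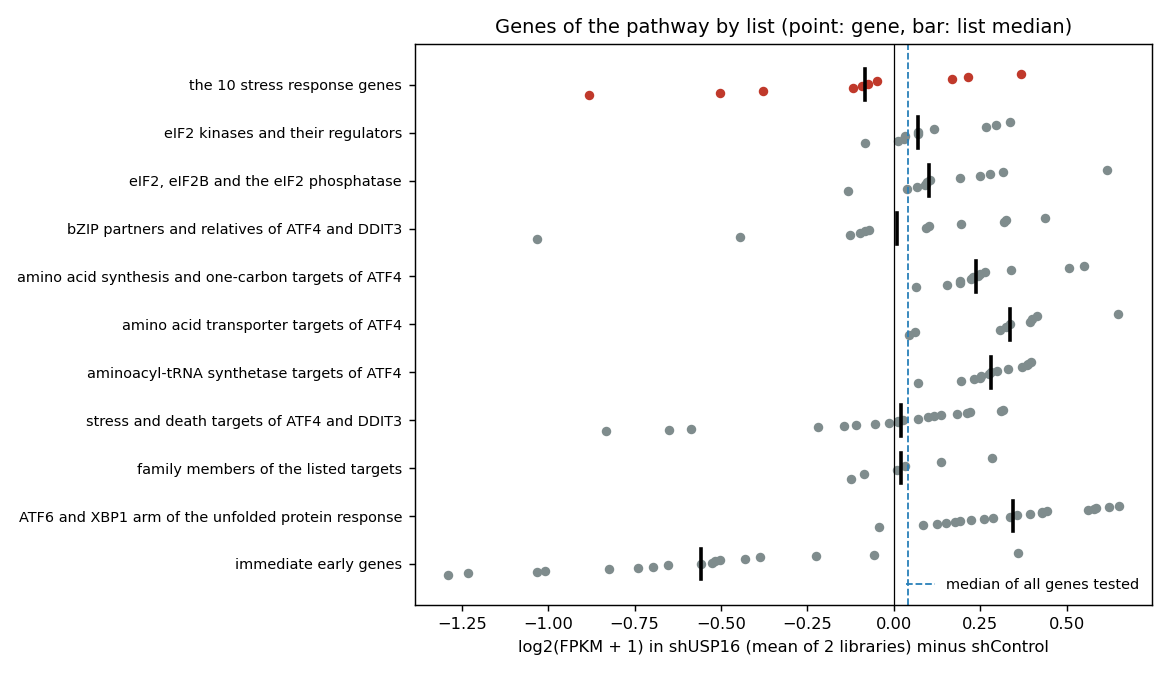
Mean log2(FPKM + 1) difference between the 2 shUSP16 libraries and shControl for the 10 genes (red) and for each pathway list (grey), with 1 point per tested gene, a black bar at the list median and a dashed line at the median of all tested genes, 0.042. The ATF6 and XBP1 arm lies furthest to the right, at a median of 0.35. Amino acid and tRNA synthetase targets also lie to the right, at medians of 0.24 to 0.34, and immediate early genes to the left, at -0.56. For genes averaging 5 FPKM or more the median, not drawn, was 0.109.

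Among bZIP partners and relatives of ATF4 and DDIT3, 5 of 12 tested genes were higher in both and 5 lower, with medians of 0.099 and -0.021. ATF3, a stress-induced repressor, had 11.3 FPKM in shUSP16-1 and 12.9 FPKM in shUSP16-2, against 25.8 FPKM in shControl, a gap like that of DDIT3 (limma adjusted p = 0.212). limma called it among protein-coding genes, as did voom. NUPR1, a stress cofactor, had 21.5 and 21.8 against 29.9 FPKM, and voom called it lower with sums of reads only. NFE2L2, the antioxidant factor NRF2, was on the other side, at 14.7 and 15.6 against 10.9 FPKM. CEBPG, an obligate partner for ATF4 on many amino acid genes, had 74.3 and 73.8 against 81.0 FPKM, with a limma adjusted p of 0.609. BATF3 was at 1.64 and 1.68 against 1.12 FPKM.

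The ATF6 and XBP1 arm of the unfolded protein response, which raises chaperones of the endoplasmic reticulum, was higher in both libraries for 19 of 20 genes and lower for 1. Its median gene was 0.25 above shControl in shUSP16-1 and 0.49 above in shUSP16-2. HSPA5 (BiP), the main chaperone, had 178 FPKM in shUSP16-1 and 232 FPKM in shUSP16-2, against 154 FPKM in shControl (limma adjusted p = 0.382). HYOU1, SDF2L1, CANX and CRELD2 had mean log2 differences of 0.65, 0.58, 0.62 and 0.59, and voom with the totals behind the FPKM called these 4 and PDIA6 higher. EDEM1 was the 1 lower gene, at -0.066 and -0.022. With equal totals 13 were higher and 1 lower.

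Immediate early genes, which growth factors or handling of cells induce quickly and transiently, were mostly lower in both libraries, as were DDIT3 and PPP1R15A. ATF3 is itself 1 of this list and is counted in it. Of 17 tested, 15 were lower in both libraries and 1 higher, with medians of -0.68 and -0.46, and their summed level was 648 FPKM in shUSP16-1 and 776 FPKM in shUSP16-2, against 987 FPKM in shControl. JUN had 65.0 and 70.1 against 166 FPKM (limma adjusted p = 0.164). EGR3 and NR4A1 had mean log2 differences of -1.23 and -1.01, and MYC was the 1 higher gene, at 0.36. In the fit to protein-coding genes limma called ATF3, DUSP1, EGR3, JUN and NR4A1 lower. The part of handling or growth factor signalling in the values of DDIT3 and PPP1R15A was not tested.

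Over the 7042 other protein-coding genes at 5 FPKM or more on average, those with the pair of differences nearest to that of DDIT3 were HILPDA, DUSP1, ADM, ANGPTL4 and SHC2. Likeness was the Euclidean distance between the 2 log2 differences from shControl, which was 0.072, 0.093, 0.094, 0.13 and 0.18, and it rests on 3 libraries with a shared control. DUSP1, a MAP kinase phosphatase, had 14.6 FPKM in shUSP16-1 and 14.9 FPKM in shUSP16-2, against 26.8 FPKM in shControl. HILPDA, a lipid droplet protein gene, had 9.70 and 10.1 against 19.5 FPKM.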

How the data were processed

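The deposited table held FPKM values per gene and library, as the authors gave them, per the file headers, with each gene's biotype, position and length. The aligner, counter and strand setting were not given in the sources used here. GRCm38 and mm10, both mouse, are the builds in the submitters' processing notes, but the positions of all 58735 gene IDs equal human GENCODE release 29 on GRCh38. Dividing FPKM times length by 1 constant per library returned whole reads for 100% of values above 0 (tolerance 0.01 reads). The totals implied by FPKM were 1.01, 0.994 and 1.08 times the sums of reads in shUSP16-1, shUSP16-2 and shControl.

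Values were compared as log2(FPKM + 1), which understates the change of low genes, over genes averaging 1 FPKM or more. limma 3.58.1 (R 4.3.3, mean trend, Benjamini-Hochberg, threshold 0.05) had 1 residual degree of freedom, from the 2 libraries labelled shUSP16; the lone shControl was assumed to vary like them. Simulated data had 200 genes changed by known folds, with a chosen spread that was not taken from these libraries. At this design limma on log2(FPKM + 1) called few of those 200 genes. With that setting, its count of 0 says little about how many genes differ. Ratios of reads carry exact binomial 95% intervals (scipy 1.17.1). Named genes were the 10 members, fixed regulators, up to 4 per list ranked by the smaller of the 2 library differences among those on 1 side of shControl, and the 5 genes nearest to DDIT3. TRIB1, TRIB2, ALDH18A1, CBS, PDIA6, EDEM1, MYC, the overlapping genes and the pseudogenes were named after their values were seen. The members and lists were chosen with earlier results of these data known. An exact permutation test cannot reach 0.05 with 3 libraries. Python 3.11.15, numpy 2.4.6, pandas 2.3.3 and matplotlib 3.10.9 were used. Alternatives covered the pseudocount, the filter on low values, the scaling, the model and each library labelled shUSP16.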

Additional observations from a re-analysis of the deposited data

How the results depend on the processing

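limma called 0 genes with the settings reported, and also with a pseudocount of 0.1, no filter, equal totals, median ratio, no trend or a robust trend. It called 13 with a mean of at least 5 FPKM, 48 among protein-coding genes, 348 by voom with the totals behind the FPKM (204 higher, 144 lower) and 557 by voom with sums of reads (139 higher, 418 lower). Genes at least 1.5-fold higher in both libraries numbered 133, and lower 279. The counts were 73 higher and 406 lower with equal totals, 261 and 553 with a pseudocount of 0.1, 63 and 61 with a mean of at least 5 FPKM, 59 and 67 among protein-coding genes, and 19 and 60 at 2-fold. With no filter 685 were lower. With 1 library labelled shUSP16 left out there were 291 higher and 549 lower (without shUSP16-2), or 438 and 679 (without shUSP16-1). Members lower by 1.5-fold numbered 1, with 0 at 2-fold and 2 with equal totals. Of 50 alternative log2 differences of members 18 were counted as moved, by a rule set against the spread between the libraries labelled shUSP16. Such a shift could be smaller than the gap between these libraries. TRIB3 was counted as moved with equal totals, from -0.048 to -0.154, while its 2 libraries lay 0.109 apart. Of the 50, 1 changed sign: TRIB3, at -0.048, was at 0.0062 without shUSP16-2. Of 60 alternative list medians 17 moved and 12 changed sign. No limma test was possible with 1 library on each side. No paired analysis was possible because shControl is a single library whose title gives no number, so the groups share fewer than 2 numbers. The cause of these shifts was not tested.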
